A study of Homo sapiens with 4 samples.

Results

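The genes that copy DNA in S phase were compared between MDA-MB-231, a human triple-negative breast cancer cell line (the parental cells), and its lung-metastatic derivative, which the deposited table names LM2. The group holds 51 genes of DNA replication and S-phase entry, taken by gene name from the 57815 genes of the deposited table, and each name matched 1 row. Both cell lines were grown in DMEM with 10% FBS, with no treatment named in the labels. RNA of each was sequenced in 2 libraries (4 in all), and nothing states that these came from separate cultures. The authors merged the libraries of a cell line into 1 FPKM per gene (fragments per kilobase of transcript, corrected for sequencing depth), with a lower and an upper bound. No value per library was examined, so there is no replicate check and no p-value. Fewer cells in S phase and less RNA of these genes per cell cannot be told apart in bulk RNA.

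Before S phase, the origin recognition complex (ORC) marks the sites where copying can begin, and CDC6 and CDT1 load the ring-shaped MCM2-7 helicase there. At the start of S phase, the kinases CDC7 and cyclin E-CDK2 turn the loaded rings into active helicases that carry CDC45 and the GINS complex. Polymerase alpha with primase then makes primers, polymerases epsilon and delta extend them on the sliding clamp PCNA, and FEN1 and LIG1 join the pieces of the lagging strand. Many of these genes are transcribed by E2F factors at the G1/S border, and their mRNA is widely read as a sign of proliferation in breast tumours.

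Of the 51 replication genes, 1 was called different between the cell lines. Changes were expressed as log2 of (FPKM + 1) of LM2 over that of MDA-MB-231, and a call required 1.5-fold or more together with bounds that did not overlap. Where a pair of levels is given, MDA-MB-231 comes first and LM2 second. POLA1, the catalytic subunit of polymerase alpha, was called lower in LM2, and no replication gene was called higher. By the same rule 9.27% of the 13911 genes with status OK and a mean of at least 0.5 FPKM were called, 4.61% as lower and 4.67% as higher. All 51 replication genes passed this filter. Bounds were apart for POLA1 alone, against 9.39% of all genes tested. A fold of 1.5 alone was passed by 5 replication genes, beside 22.1% of all genes tested. All 5 were lower in LM2 (11.8% of all genes) and none was higher (10.3%), but this split depends on the scale. CDC7 and FEN1 passed 1.5-fold as higher without a pseudocount and under each of the 3 other scalings tried, while the lower ones numbered 4 after scaling to the same FPKM sum or with the median of all genes set to 0 (without MCM6) and 3 after quantile normalization (without MCM6 and MCM7). On the scale used here, the remaining 46 genes (90.2%) differed by less than 1.5-fold, as did 77.9% of all genes. Among the 9519 genes with a mean of at least 5 FPKM, where 50 of the 51 stand, 8.03% were called and 18.8% passed 1.5-fold.

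The replication genes were well expressed in both cell lines. Their levels ran from 2.70 to 224.4 FPKM (median 30.8 FPKM) in MDA-MB-231 and from 2.91 to 200.1 FPKM (median 31.0 FPKM) in LM2. At least 10 FPKM was reached by 47 genes in MDA-MB-231 and 46 in LM2, with PCNA the highest and E2F2 the lowest in both. The order of the genes was nearly kept, with Spearman's rho at 0.971 and Pearson's r at 0.967 on log2(FPKM + 1) across the 51 genes, which share libraries and are not independent. Together they summed to 2801.2 FPKM in the parental cells and 2418.3 FPKM in LM2, or 0.443% and 0.404% of the sum over all genes.

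**Figure D1:**
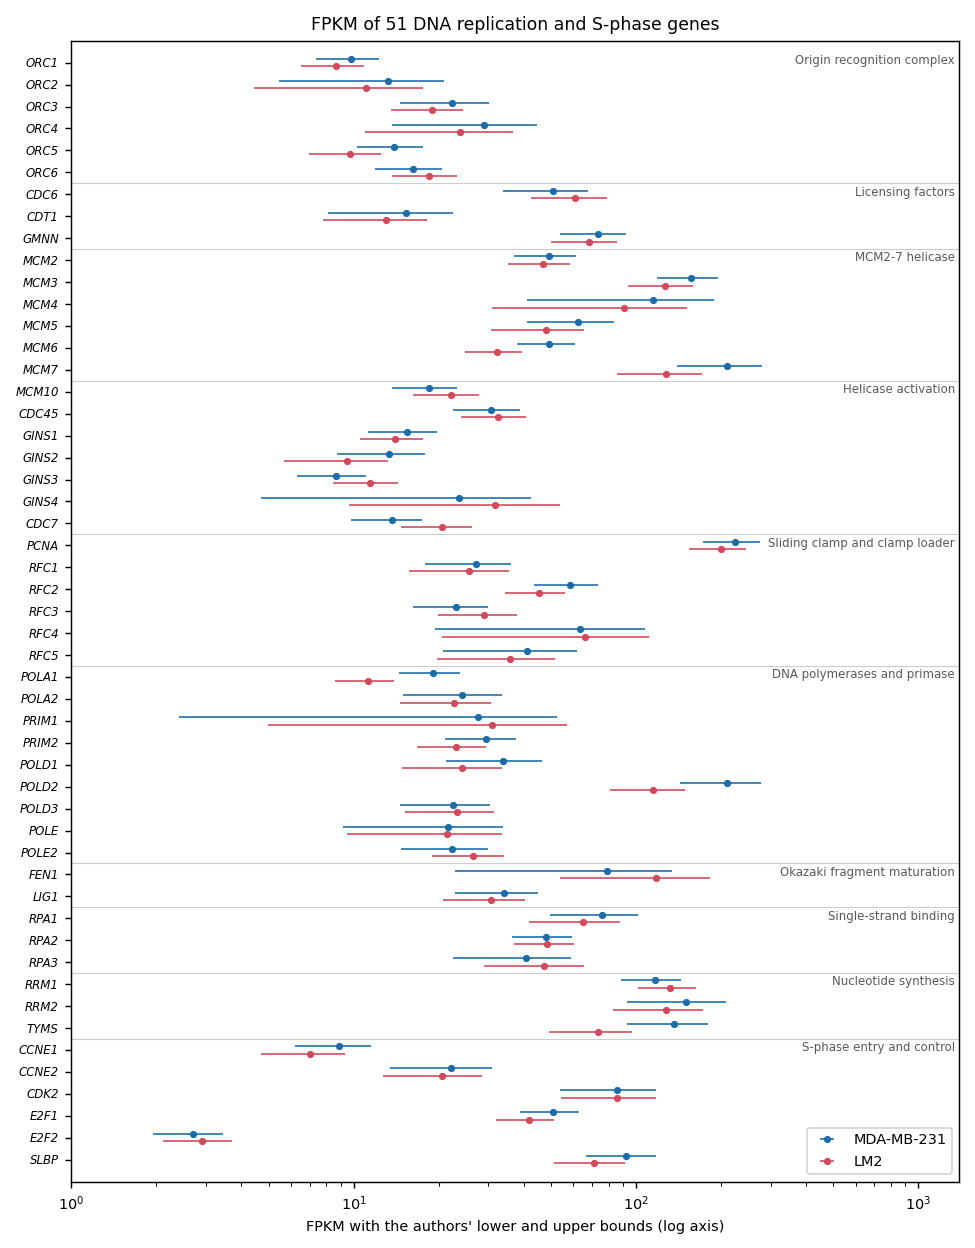
FPKM of the 51 genes on a log axis, grouped by role, in MDA-MB-231 (blue) and LM2 (red). Points are the authors' value merged from 2 libraries and bars reach from their lower to their upper bound. POLA1 is the 1 gene whose bars do not overlap.

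Most differences were small. The FPKM was lower there for 33 of the 51 genes and higher for 18 (35.3%, beside 45.5% of all genes tested and 41.9% of those of at least 5 FPKM), with a median log2 fold change of -0.15, beside -0.04 over all genes tested and -0.08 over those of at least 5 FPKM. After scaling to the same FPKM sum 30 genes were lower with a median of -0.07, and after quantile normalization 29 were lower with a median of -0.05. The bounds limit what could be seen. They reached a median of 32.6% above the FPKM in MDA-MB-231 and 31.4% in LM2, so that the levels of a typical replication gene would have to differ by a ratio of 1.95 before its bounds came apart (1.59 for PCNA and 21.05 for PRIM1). With the distance to the upper bound taken as 2 standard errors, the 95% interval of the log2 ratio of FPKM lay within 2-fold both ways for 30 genes and within 1.5-fold for 2 genes. For the other genes a difference of 1.5-fold could not be told from none at this precision, unless their interval lay clear of 0, as it did for 6 genes (POLA1, POLD2, TYMS, MCM7, MCM6 and CDC7).

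**Figure D2:**
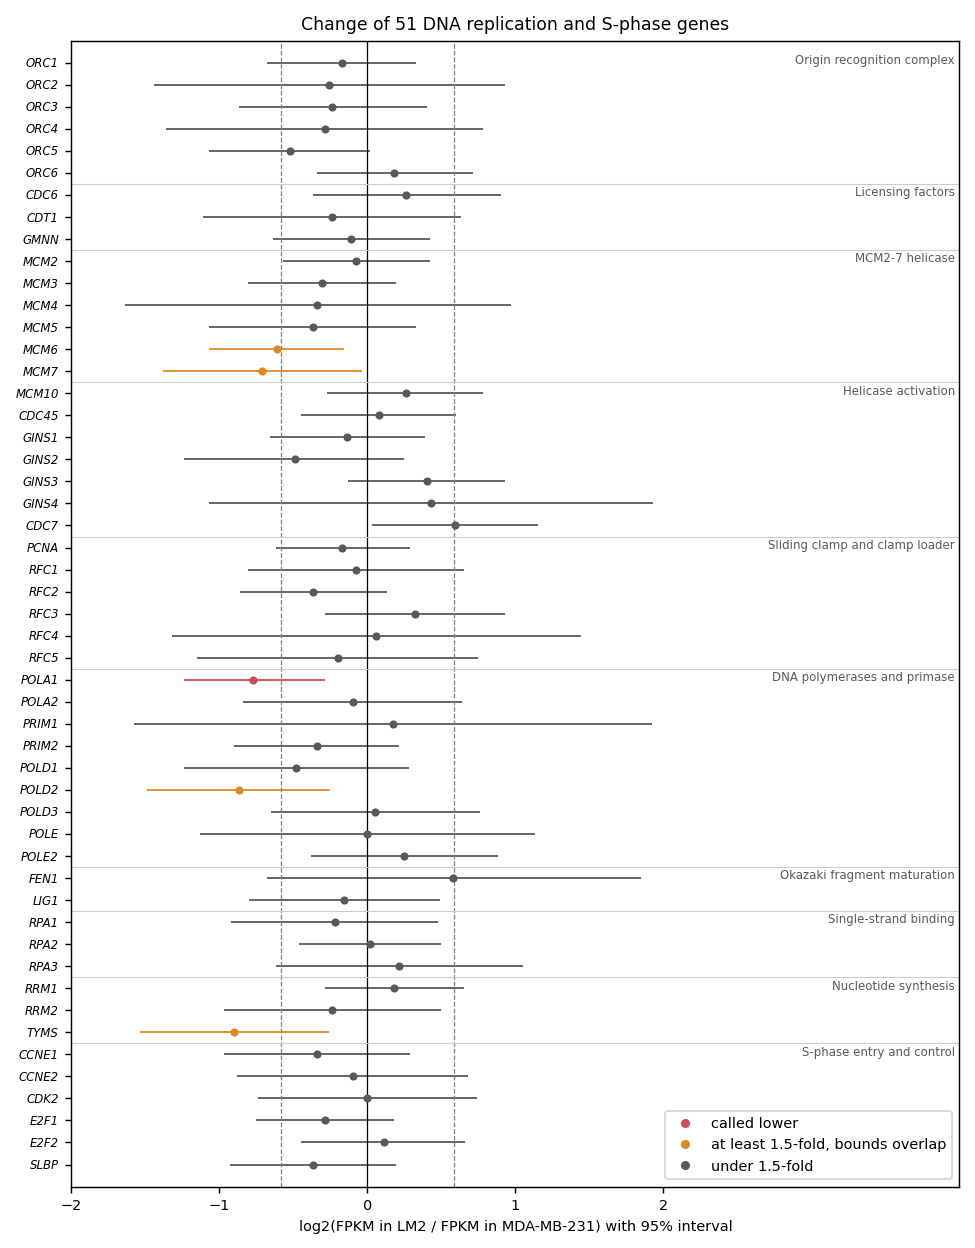
The log2 ratio of FPKM in LM2 to MDA-MB-231 for the 51 genes, without a pseudocount, with bars for the 95% interval derived from the authors' bounds. Dashed lines mark 1.5-fold, and colours give the class on the scale of FPKM + 1, on which POLA1 was called and MCM6, MCM7, POLD2 and TYMS passed 1.5-fold with overlapping bounds.

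The comparison turns on the 5 genes of at least 1.5-fold, so the 250 bases before their RefSeq start sites (GRCh38.p14) are shown, read 5′ to 3′ on the strand of the gene. Capitals mark TTTCCCGC, TTTCGCGC, TTTGCCGC or TTTGGCGC, forms of the E2F motif, or their reverse complements, with overlaps allowed.
POLA1 (chrX:24693668-24693917, plus strand): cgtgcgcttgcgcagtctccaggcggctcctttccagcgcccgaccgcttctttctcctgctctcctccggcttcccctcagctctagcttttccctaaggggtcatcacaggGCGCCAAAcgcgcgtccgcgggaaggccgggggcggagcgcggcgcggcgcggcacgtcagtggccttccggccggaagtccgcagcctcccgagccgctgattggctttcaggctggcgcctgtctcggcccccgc
TYMS (chr18:657403-657652, plus strand): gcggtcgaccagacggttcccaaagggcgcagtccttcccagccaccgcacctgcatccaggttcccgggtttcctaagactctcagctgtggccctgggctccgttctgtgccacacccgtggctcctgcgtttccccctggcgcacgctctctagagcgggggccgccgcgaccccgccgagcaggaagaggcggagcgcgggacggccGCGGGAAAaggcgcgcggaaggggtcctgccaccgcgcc
POLD2 (chr7:44123549-44123798, minus strand): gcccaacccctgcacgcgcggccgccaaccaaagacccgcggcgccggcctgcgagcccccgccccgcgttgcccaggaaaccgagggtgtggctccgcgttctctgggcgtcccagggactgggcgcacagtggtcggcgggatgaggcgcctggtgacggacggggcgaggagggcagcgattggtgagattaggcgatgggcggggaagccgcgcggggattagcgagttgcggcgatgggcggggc
MCM7 (chr7:100101398-100101647, minus strand): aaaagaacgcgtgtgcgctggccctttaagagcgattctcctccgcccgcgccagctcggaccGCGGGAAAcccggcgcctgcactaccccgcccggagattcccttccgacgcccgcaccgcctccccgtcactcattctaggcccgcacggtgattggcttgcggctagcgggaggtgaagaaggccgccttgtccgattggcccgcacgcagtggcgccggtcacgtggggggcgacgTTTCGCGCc
MCM6 (chr2:135876444-135876693, minus strand): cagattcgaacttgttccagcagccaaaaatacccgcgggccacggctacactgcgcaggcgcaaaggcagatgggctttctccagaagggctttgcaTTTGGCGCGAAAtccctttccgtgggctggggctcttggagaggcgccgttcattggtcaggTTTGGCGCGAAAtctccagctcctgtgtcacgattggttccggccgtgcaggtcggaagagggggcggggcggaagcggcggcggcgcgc
The E2F letters stood in the stretches of POLA1, TYMS, MCM7 and MCM6 and not in that of POLD2. In MCM6, 4 matches overlap in 2 runs of capitals. RefSeq lists 3 start sites for MCM7, and the one with matches is shown.

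The E2F letters were shared by many replication genes, whether or not their levels differed. Promoters from 250 bases before to 50 after the start were matched by symbol for 43 of the 51 genes. Of these 22 (51.2%) held the letters on either strand, compared with 4.0% of all 27305 genes with a promoter listed. These 27305 genes were not limited to those expressed here, so the 2 sets are unlike. CCAAT, the motif of the factor NF-Y, was in 55.8% compared with 39.7%, and TTTGAA or TTCGAA, the cell cycle homology region (CHR) known from genes of mitosis, was in 4.7% compared with 19.5%. The promoters of the replication genes also held more G and C, at a median of 65.7% compared with 58.3%. All 3 licensing genes and all 4 matched MCM2-7 genes held the E2F letters, but of the 6 ORC genes only ORC3 did. The 22 genes with the letters had a median log2 fold change of -0.14 (range -0.89 to 0.55) and 16 were lower in LM2. Without them, 21 genes had a median of -0.21 (range -0.87 to 0.58) and 14 were lower. A match is a run of letters and no evidence of binding. MCM4, MCM5, GINS4, POLD3, RPA2, RPA3, CCNE2 and CDK2 were not matched.

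POLA1, which starts every new DNA strand together with primase, stood at 19.1 FPKM (bounds 14.5 and 23.7) in the parental cells against 11.2 FPKM (bounds 8.57 and 13.9) in LM2. Its log2 fold change was -0.72, and the 95% interval of the log2 ratio was -1.24 to -0.29. The gene (ENSG00000101868) lies at chrX:24711990-25015103 on the plus strand of GRCh37, where no exon of another gene overlaps it. The gap between the bounds is small, and POLA1 was no longer called after scaling to the same sum (log2 fold change -0.66) or at a fold threshold of 2. Its partners in the complex had overlapping bounds. POLA2, the accessory subunit, had 24.2 and 22.6 FPKM. PRIM1, the catalytic primase subunit, had 27.5 and 31.0 FPKM, with bounds as wide as 2.40 and 52.6 in MDA-MB-231, and PRIM2, the large primase subunit, had 29.3 and 23.1 FPKM. Whether the change of POLA1 differed from theirs was not tested.

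POLD2, an accessory subunit of polymerase delta, was the highest of the 9 polymerase and primase genes. It stood at 210.5 FPKM (bounds 142.7 and 278.3) in the parental cells against 114.9 FPKM (bounds 80.8 and 149.0) in LM2. Its log2 fold change was -0.87 and the interval -1.49 to -0.25 lay below 0, but the bounds overlap by a narrow margin and POLD2 was not called. It (ENSG00000106628) lies at chr7:44154230-44163957 on the minus strand of GRCh37. The other subunits of polymerase delta, which copies mainly the lagging strand, were closer between the cell lines. POLD1, the catalytic subunit, had 33.8 and 24.2 FPKM (log2 fold change -0.46), and POLD3, which binds PCNA, had 22.5 and 23.3 FPKM. POLE, the catalytic subunit of the leading-strand polymerase epsilon, had 21.5 and 21.5 FPKM, and POLE2, its second subunit, had 22.35 and 26.55 FPKM. POLD2 stood above POLA1, the lowest of the 9 genes, by a ratio of 11.0 in the parental cells and 10.2 in LM2, on the scale of FPKM, which is per length.

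TYMS encodes thymidylate synthase, the enzyme that makes dTMP and the target of 5-fluorouracil, and had the lowest log2 fold change of the 51 genes, -0.89. It stood at 136.6 FPKM (bounds 93.3 and 179.8) in the parental cells against 73.1 FPKM (bounds 49.4 and 96.8) in LM2, with bounds that overlap slightly and an interval of -1.54 to -0.26 for the log2 ratio. TYMS (ENSG00000176890) lies at chr18:657653-673578 on the plus strand of GRCh37, and exons of ENOSF1 and TYMSOS on the opposite strand cover 47.9% of its exon bases. The use of strand in counting is not stated, so reads of these genes cannot be told apart there. ENOSF1 was far below TYMS, at 15.4 and 11.75 FPKM. The genes of ribonucleotide reductase, the enzyme that makes deoxynucleotides, had overlapping bounds. RRM1, the large subunit, stood at 116.5 FPKM (bounds 88.7 and 144.4) against 132.1 FPKM (bounds 101.4 and 162.7), a change of 0.18 on the log2 scale. RRM2, the small subunit made in S phase, stood at 150.7 FPKM (bounds 93.3 and 208.2) against 127.8 FPKM (bounds 82.6 and 172.9), a change of -0.24.

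All 6 genes of the MCM2-7 helicase had a lower FPKM in LM2, beside 7585 of the 13911 genes tested, and no call was made among them. MCM2 turned to 0.00 or above after scaling to the same sum or quantile normalization. The 6 genes summed to 642.4 FPKM in the parental cells and 472.7 FPKM in LM2, and the median of their log2 fold changes was -0.35. MCM7 stood at 209.9 FPKM (bounds 140.0 and 279.9) in the parental cells against 128.2 FPKM (bounds 85.4 and 171.0) in LM2, with a log2 fold change of -0.71. MCM6 stood at 49.3 FPKM (bounds 37.9 and 60.6) against 32.2 FPKM (bounds 24.8 and 39.5), with a log2 fold change of -0.60 and bounds that overlap slightly. MCM7 (ENSG00000166508) lies at chr7:99689856-99699563 on the minus strand of GRCh37, where AP4M1 and MIR93 cover 8.5% of its exon bases, and MCM6 (ENSG00000076003) at chr2:136597196-136634013 on the minus strand of GRCh37, free of such overlap. The other 4 genes of the ring were below 1.5-fold. MCM3 had 156.9 and 126.5 FPKM and MCM5 62.2 and 48.0 FPKM. MCM4 had 114.9 and 91.1 FPKM, with bounds of 41.0 and 188.7 in MDA-MB-231, and MCM2 had 49.3 and 46.7 FPKM. The ring takes up its subunits in equal numbers, while the FPKM of MCM7 was above that of MCM6 by a ratio of 4.26 in the parental cells and 3.98 in LM2.

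Of the 7 genes that turn the loaded helicase into an active one, 5 had a higher FPKM in LM2, beside 45.5% of all genes tested. None was called, and the interval of the log2 ratio included 0 for all but CDC7. The median log2 fold change of the 7 genes was 0.25. Under the 3 other scalings 5 were higher too, with medians from 0.29 to 0.33. CDC7, the kinase that phosphorylates the MCM ring, stood at 13.6 FPKM (bounds 9.82 and 17.4) in the parental cells against 20.5 FPKM (bounds 14.8 and 26.2) in LM2. Its log2 fold change of 0.55 was just under 1.5-fold, which it passed without a pseudocount (0.59), after scaling to the same sum (0.65), with the median of all genes set to 0 (0.60) and after quantile normalization (0.62), with overlapping bounds in each. CDC7 was the 1 replication gene whose interval (0.03 to 1.15) lay above 0. DBF4, the subunit that activates CDC7 and no member of the 51, stood at 37.5 FPKM (bounds 23.9 and 51.15) against 22.9 FPKM (bounds 13.6 and 32.3), a log2 fold change of -0.69 with overlapping bounds. CDC45, part of the active helicase and the highest of the 7 genes, stood at 30.75 FPKM (bounds 22.5 and 39.0) against 32.4 FPKM (bounds 24.1 and 40.8), a change of 0.07. MCM10, which helps unwinding to start, had 18.4 and 22.0 FPKM. The 4 GINS genes, whose proteins form 1 complex, lay on both sides of 0. GINS3 stood at 8.66 FPKM (bounds 6.30 and 11.0) against 11.4 FPKM (bounds 8.475 and 14.35), a change of 0.36, and GINS4 at 23.6 FPKM (bounds 4.69 and 42.6) against 31.8 FPKM (bounds 9.63 and 53.9), a change of 0.41 with wide bounds. GINS2 stood at 13.3 FPKM (bounds 8.70 and 17.9) against 9.45 FPKM (bounds 5.67 and 13.2), a change of -0.45, and GINS1 had 15.5 and 14.1 FPKM. GINS3 was the lowest of the 7 genes in MDA-MB-231 and GINS2 in LM2.

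The genes that mark and license origins were all below 1.5-fold. Of the 6 ORC genes 5 had a lower FPKM in LM2, beside 7585 of the 13911 genes tested. The median log2 fold change of the 6 genes was -0.23. Under the 3 other scalings 5 were lower too, with medians from -0.19 to -0.16. ORC4, the highest of them, stood at 29.0 FPKM (bounds 13.6 and 44.4) against 23.8 FPKM (bounds 10.95 and 36.6), a change of -0.28. ORC1, the largest subunit and the lowest in level, stood at 9.795 FPKM (bounds 7.33 and 12.3) against 8.68 FPKM (bounds 6.49 and 10.9), a change of -0.16. ORC5 had 13.9 and 9.70 FPKM, the largest difference of the complex at -0.48, and ORC6, the exception in direction, had 16.2 and 18.5 FPKM. ORC2 and ORC3 had 13.2 and 11.05 FPKM and 22.4 and 18.95 FPKM. Among the licensing genes, GMNN was the highest in both cell lines. GMNN, whose product geminin blocks CDT1 once S phase has begun, stood at 73.1 FPKM (bounds 53.9 and 92.4) against 67.9 FPKM (bounds 49.9 and 85.95), a change of -0.11. CDT1 was the lowest of the 3, at 15.3 FPKM (bounds 8.13 and 22.5) against 13.0 FPKM (bounds 7.79 and 18.2), a change of -0.22, and CDC6 had 50.7 and 60.8 FPKM.

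PCNA, the sliding clamp, had the highest level and the narrowest bounds for its level. It stood at 224.4 FPKM (bounds 173.2 and 275.5) against 200.1 FPKM (bounds 154.7 and 245.4), a log2 fold change of -0.16. Replication factor C loads the clamp, and its 5 genes lay between -0.36 for RFC2 (58.3 and 45.2 FPKM) and 0.31 for RFC3, at 23.1 FPKM (bounds 16.2 and 29.9) against 28.9 FPKM (bounds 19.8 and 38.0). RFC4 had 63.4 and 66.0 FPKM and RFC5 had 41.1 and 35.8 FPKM. RFC1, the large subunit and the lowest of the 5 in LM2, stood at 27.05 FPKM (bounds 17.95 and 36.2) against 25.6 FPKM (bounds 15.7 and 35.5), a change of -0.08. FEN1, the nuclease that trims flaps between Okazaki fragments, had the highest log2 fold change of the 51 genes, 0.58, and was past 1.5-fold under the 3 other scalings (0.62 to 0.68) without a call. It stood at 78.8 FPKM (bounds 22.8 and 134.7) against 118.1 FPKM (bounds 53.8 and 182.4), and these wide bounds give an interval of -0.68 to 1.85. LIG1, the ligase that seals the fragments, stood at 34.0 FPKM (bounds 22.9 and 45.1) against 30.6 FPKM (bounds 20.7 and 40.4), a change of -0.15. The RPA genes, whose products coat single-stranded DNA, were close in level. RPA1 stood at 75.6 FPKM (bounds 49.65 and 101.5) against 65.0 FPKM (bounds 41.9 and 88.1), a change of -0.21, RPA3 at 40.7 FPKM (bounds 22.5 and 58.85) against 47.1 FPKM (bounds 28.9 and 65.2), a change of 0.21, and RPA2 had 47.8 and 48.55 FPKM.

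None of the 6 genes of S-phase entry and control among the 51 was called. E2F1, an activator of the E2F family, had 50.8 and 41.7 FPKM, a log2 fold change of -0.28, and E2F2, another activator and the lowest of the 51 genes, stood at 2.70 FPKM (bounds 1.95 and 3.45) against 2.91 FPKM (bounds 2.11 and 3.71), a change of 0.08. CDK2, the kinase partner of the E cyclins, stood at 85.9 FPKM (bounds 53.6 and 118.1) against 86.0 FPKM (bounds 54.3 and 117.6), with an interval of -0.74 to 0.74 for the log2 ratio. The E cyclins were lower in level, at 8.86 and 7.02 FPKM for CCNE1 and 22.15 and 20.6 FPKM for CCNE2, whose exons overlap other genes over 37.1% of their bases. SLBP, which binds the stem-loop at the end of histone mRNAs, stood at 92.1 FPKM (bounds 66.5 and 117.7) against 71.2 FPKM (bounds 51.3 and 91.2), a change of -0.37. The mRNAs of replication-dependent histone genes mostly end in this stem-loop in place of a poly(A) tail. Among 89 genes taken by the names of the histone clusters alone, some of them pseudogenes, 22 passed the filter. Of these 10 were called lower, beside 4.61% of all genes tested, and none higher, beside 4.67%. A gene could pass this filter through its level in 1 cell line, so the count is given without a reading.

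Other genes of replication and the cell cycle were taken from lists outside the 51 genes. Over all genes tested, 4.61% were called lower and 4.67% higher. Of 38 other replication genes (median -0.12) none was called lower and 1 higher, TICRR, which helps to load CDC45. TICRR rose to 11.4 FPKM (bounds 7.43 and 15.3) in LM2 from 5.01 FPKM (bounds 3.34 and 6.685), a change of 1.04. TK1, the thymidine kinase of S phase, had 137.6 and 89.7 FPKM with overlapping bounds. Among 25 other G1/S regulators past the filter (median -0.08), 1 was called in each direction. CDKN1A, the CDK inhibitor p21, was the one called higher, at 46.8 FPKM (bounds 35.7 and 57.8) against 77.0 FPKM (bounds 59.5 and 94.5). CDKN2C, an inhibitor of CDK4 and CDK6, was called lower, at 49.7 FPKM (bounds 37.6 and 61.9) against 26.0 FPKM (bounds 19.3 and 32.7). The mitosis genes lay further below 0 than the replication genes. Of 37 mitosis genes 34 had a lower FPKM in LM2 (33 after scaling to the same sum or quantile normalization), beside 7585 of the 13911 genes tested. The median of the mitosis genes was -0.41 (-0.30 to -0.37 under the 3 other scalings). At least 1.5-fold lower were 10 of them, beside 11.8% of all genes, and 6 after scaling to the same sum, 7 with the median of all genes set to 0 and 4 after quantile normalization. BUB1, a spindle checkpoint kinase with 99.4 and 59.8 FPKM, and CDCA8, of the chromosomal passenger complex with 67.1 and 40.9 FPKM, were called lower, though not under the 3 other scalings. The difference between the lists was not tested.

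**Figure D3:**
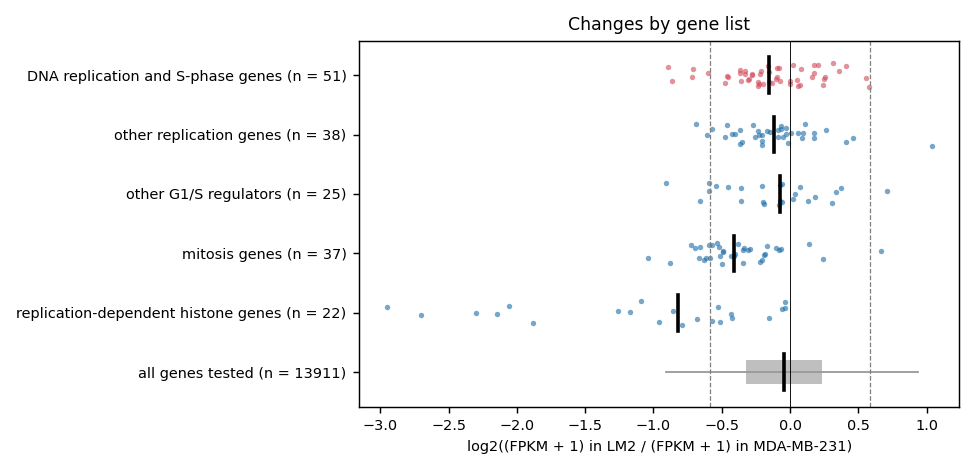
The log2 fold changes of the genes past the filter, 1 point per gene, for the replication genes (red), 3 cell cycle lists and the histone genes (blue), with black bars at the medians. For all genes tested the box spans the middle 50% and the line the middle 90%, and dashed lines mark 1.5-fold. The replication genes gather around a median of -0.15 and the mitosis genes around -0.41.

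The changes of the replication genes were then set beside those of their neighbours on the chromosome. For each gene, the median log2 fold change of the protein-coding genes tested within 3 Mb was taken, leaving the gene itself out. Pearson's r between gene and neighbours was 0.65 and Spearman's rho 0.58 across the 51 genes, beside 0.31 and 0.37 across 11979 protein-coding genes. These points share libraries, and some share neighbours. Of the 51 genes 50 had a mean of at least 5 FPKM, while the protein-coding genes reached down to 0.5 FPKM. The correlations were not matched for level, so their difference is given without a reading. Without the 5 genes of at least 1.5-fold, r was 0.47 over 46 genes. All 5 had neighbours with a median below 0, as did 36 of the 51 genes. Over the 11979 protein-coding genes, the median of such neighbour medians was -0.04. A neighbour median of at most -0.25 was found for 12 of the 51 genes, beside 15.7% of these protein-coding genes. Among all genes tested, 7585 of 13911 were lower in LM2, and 4.61% were called lower and 4.67% higher. Around POLA1, 10 of 11 neighbours were lower in LM2, 4 of them called, with a median of -0.75. SMS, which makes spermine, had 271.7 and 128.2 FPKM, and SAT1, which breaks polyamines down, was the 1 neighbour called higher, with 51.9 and 173.8 FPKM. POLA1 itself differed from the median of its neighbours by 0.04. Around POLD2, 27 of 29 neighbours were lower with a median of -0.57, and around TYMS 11 of 12 with a median of -0.48. The medians were -0.40 around MCM7 (64 of 74 lower) and -0.22 around MCM6 (10 of 11 lower). Relative to these medians, TYMS stood at -0.41, MCM6 at -0.37, MCM7 at -0.31 and POLD2 at -0.29, all below 1.5-fold. GMNN and RFC2 had neighbours with medians of -0.51 and -0.53 but changes of -0.11 and -0.36. The part of chromosomal position in these changes was not tested.

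**Figure D4:**
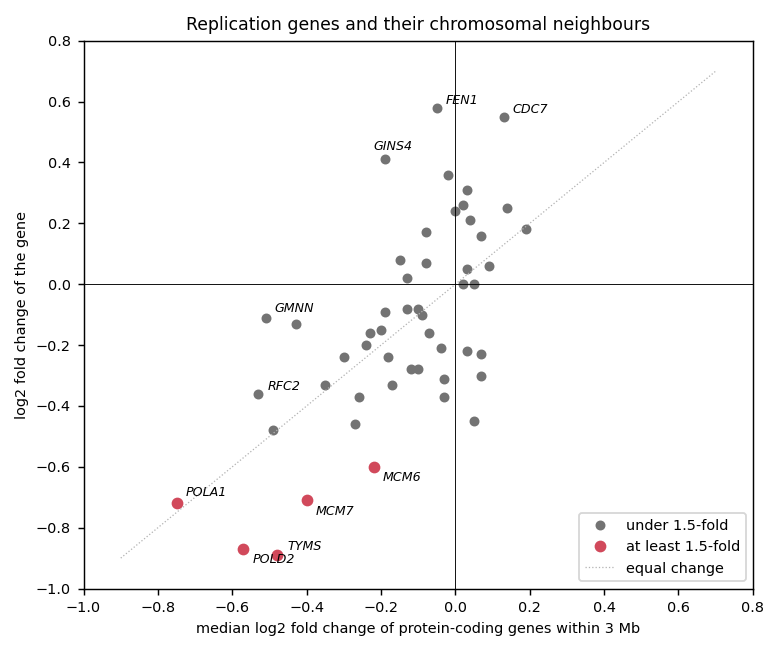
The log2 fold change of each of the 51 genes (y axis) against the median log2 fold change of the protein-coding genes within 3 Mb (x axis), with the 5 genes of at least 1.5-fold in red and a dotted line at equal change. POLA1 lies close to that line at a neighbour median of -0.75, and TYMS, POLD2, MCM7 and MCM6 lie below it.

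Markers of a triple-negative line were looked up. Both cell lines are of this type, so the markers cannot show which label belongs to which. Of those listed as low, ESR1 and PGR, the hormone receptors, had 0.033 and 0.019 FPKM and 0.012 and 0.0044 FPKM. CDH1 had 0.85 and 0.37 FPKM and GATA3 3.1 and 2.42 FPKM. ERBB2 was not low, with 34.95 and 22.8 FPKM and overlapping bounds. Of those listed as high, VIM, a mesenchymal filament, had 1355.0 and 1767.5 FPKM. CD44 had 469.7 and 355 FPKM and EGFR 41.4 and 54.3 FPKM. The keratin genes KRT8 and KRT18, also listed as high, were called lower in LM2. Of 6 blood cell genes 1 passed the filter, CD14 with 1.17 and 1.75 FPKM, and PTPRC, which marks white blood cells, had 0.077 and 0.026 FPKM.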

How the data were processed

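RNA-Seq was done on MDA-MB-231 and on its lung-metastatic derivative LM2, with 2 libraries per cell line and paired reads of 150 bases. The authors used a TruSeq kit, aligned to hg19 with TopHat2, quantified GENCODE 19 genes and deposited FPKM with bounds, 1 value per gene and cell line, with Cuffdiff named per the labels. Library scaling, use of strand and what the bounds cover are not given in the sources used here. Depth cannot be read from FPKM, so precision was read from the bounds.

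Changes were log2 ratios of FPKM + 1, which understate differences at low levels, over genes with status OK and a mean of at least 0.5 FPKM. The versions were Matplotlib 3.10.9 for figures, and SciPy 1.17.1, pandas 2.3.3, NumPy 2.4.6 and Python 3.11.15 for values. The call (1.5-fold, bounds apart) was tested on simulated data with noise drawn from these same bounds. Such a simulation cannot show how the call fares with spread that the bounds do not cover. The call stands in for the q-value of the study, which needs the libraries, but is not the same test. By its own rule the study called more genes in each direction, so the counts called here cannot be compared with its counts. The genes, lists and rules were chosen with earlier results of these data known. Any of the 51 genes may be named, with bounds for those called, those of at least 1.5-fold, the 3 largest changes each way and the highest and lowest of each role, and of each other list the genes called and at most 5 by size of change. The overlap partner ENOSF1 and the neighbours SMS and SAT1 were chosen after their values were seen. Positions, neighbours and exon overlaps came from GENCODE 44 on GRCh37, matched by Ensembl ID for all 51 genes, and promoters from RefSeq on GRCh38.p14. Protein motifs were not analysed here. Alternatives covered the pseudocount, filter, fold, scaling and call rule, and the change relative to neighbours was added after seeing the data.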

Additional observations from a re-analysis of the deposited data

How the results depend on the processing

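The replication genes called lower numbered 1 in the report, and the call was POLA1 alone with a pseudocount of 0.1 or none, without the filter, at a mean of at least 1 or 5 FPKM, with the median of all genes set to 0, after quantile normalization and with the bounds alone. The count was 0 at a fold threshold of 2 and 0 after scaling to the same sum (TPM), and 5 with 1.5-fold alone or with 1.5-fold and a difference beyond its 95% interval, where MCM6, MCM7, POLD2 and TYMS were added. No replication gene was called higher under any of the 12 alternatives. The median log2 fold change of the replication genes was -0.16 without a pseudocount, -0.11 with the median of all genes set to 0, -0.07 after scaling to the same sum and -0.05 after quantile normalization, against -0.15 in the report. Over all genes, 321 were called higher at a mean of at least 5 FPKM, where fewer genes were tested, 403 lower at a fold threshold of 2, 1434 higher and 1640 lower with 1.5-fold alone, and 1090 lower with 1.5-fold and the 95% interval, against 649 higher and 641 lower in the report. No paired analysis was possible because the table holds 1 value per cell line and no replicate number, and for the same reason no library could be left out. Wide bounds limit PRIM1, GINS4, RFC4, MCM4 and FEN1 most.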
